A study of Mnemiopsis leidyi with 40 samples.

Results

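In Mnemiopsis leidyi, a comb jelly of the phylum Ctenophora, single embryos aged 5.5, 6 and 6.5 h were compared with embryos aged 4, 4.5 and 5 h. There were 2 embryos at each time, so that 6 embryos stood on each side, 12 of the 40 embryos in the series. The embryos were chosen by their labelled time. All carry the same labels apart from time and number, and no treatment, genotype or strain is given. Nothing in the labels says whether the embryos came from separate spawnings, so p-values measure the spread between these embryos. In the comparison of the windows, this spread takes in the change with age inside each window. Each library came from 1 whole embryo and was made by CEL-Seq, a method that gives each sample's RNA its own barcode and reads the 3' ends of transcripts. The submitters' sheet of samples puts each embryo into 1 of 2 sequencing pools by its Illumina index number. Pool 6 and pool 12 each held 1 embryo of every time, and the embryos of pool 6 are numbered replicate 1 here and those of pool 12 replicate 2.

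Ctenophore eggs begin development on RNA stored by the mother, and transcription of the embryo's own genome takes over while these stores decay. Cleavage follows a fixed pattern that sets apart small and large cells, the small cells spread over the large ones during gastrulation, and comb plates, tentacle bulbs, pharynx and apical organ form afterwards. The files give genes only by gene model ID, and 0 of the 16548 IDs were found among the 19625 entries of the RefSeq gene table for this species (assembly crg_Mlei_v2). Genes are therefore given by ID with no function, no list of genes by pathway or cell type was built, and no sequence is shown. In RNA from a whole embryo, fewer cells of a type and less RNA per cell cannot be told apart.

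The 12 libraries held 19068450 reads in gene models, 9962520 of them in the 5.5 to 6.5 h embryos and 9105930 in the 4 to 5 h embryos. In 10 libraries the total lay between 1002174 and 2454002 reads. The other 2 were shallow, with 264033 reads in 5.5 h replicate 2 and 580587 reads in 4 h replicate 1. A count of 3 reads corresponded to 11.4 CPM (read counts scaled to a common library total) in 5.5 h replicate 2, to 5.17 CPM in 4 h replicate 1 and to 1.22 to 2.99 CPM in the other 10 libraries. These floors use the plain total of gene reads, without the further scaling (TMM) behind the gene levels below, so they compare with those levels only roughly. Intervals and floors of this kind cover counting error only. Shares of unaligned reads, of reads outside gene models, of ambiguous reads and of reads in the 10 most abundant genes did not pass a test between the windows (exact permutation test, 2-sided, adjusted p = 0.649 for each of the 4). The pool was not taken into account in these tests. Between the pools the ranges were apart for 2 of these shares. Among aligned reads, 7.34% to 8.78% were ambiguous in pool 12 and 5.39% to 6.94% in pool 6, and 27.0% to 29.9% lay outside gene models in pool 12 and 31.4% to 38.2% in pool 6.

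The order of the embryos in expression followed their labelled age in pool 6 and departed from it in pool 12, most at 5 h. Each embryo was compared with the mean profile of the 4 embryos of 7 and 7.5 h and with that of the 4 embryos of 2 and 3 h, none of which belongs to the 12, after every library had been thinned to 264033 reads. The Spearman correlation with 7 to 7.5 h minus the correlation with 2 to 3 h was taken as a position between older and younger embryos, as a description across the 5663 genes tested below. All 6 embryos of 5.5 to 6.5 h were closer to the older profile, with differences from 0.0299 to 0.191. Of the embryos of 4 to 5 h, 5 were closer to the younger profile, with differences from -0.220 to -0.0339, and 5 h replicate 2 was closer to the older one by 0.111. In pool 6 the difference increased with every step of time. In pool 12 the 5 h embryo had a larger difference than the embryos of 5.5 h (0.0345), 6 h (0.0299) and 6.5 h (0.0921). On the first principal component of the 12 libraries (26.5% of the variance), 5 h replicate 2 ranked 10 of 12 from young to old. On the same component 5.5 h replicate 2 ranked 5 and 6 h replicate 2 ranked 6, both below 5 h replicate 1 at 7. Whether 5 h replicate 2 differed in age, in rate of development or in its label was not tested.

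**Figure D1:**
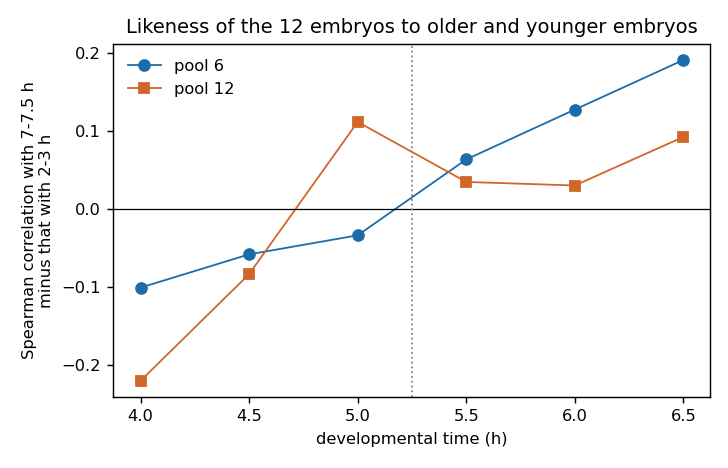
Spearman correlation of each of the 12 embryos with the mean profile of 7 to 7.5 h embryos minus that with 2 to 3 h embryos (y axis), by labelled time in hours (x axis), with 1 line per pool and the border between the windows dotted. The embryos of 5.5 to 6.5 h sit above 0 and those of 4 to 5 h below it, except 5 h replicate 2 of pool 12 at 0.111.

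Pairs of embryos from the same window resembled each other slightly more than pairs from different windows, and pairs from the same pool slightly more than pairs from different pools. The median Spearman correlation was 0.843 for the 12 pairs that shared window and pool, 0.809 for the 18 that shared the window only, 0.803 for the 18 that shared the pool only and 0.761 for the 18 that shared neither. The 6 pairs of the same time had a median of 0.821. The ranges overlapped widely, from 0.594 to 0.889 between windows and from 0.693 to 0.898 within them.

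The main comparison asked which transcripts differ between 5.5 to 6.5 h and 4 to 5 h once the difference between the pools is taken out. In the 5.5 to 6.5 h embryos 13 genes rose and 26 fell, at an adjusted p below 0.05 and a fold change of at least 2 (edgeR quasi-likelihood test over all 5663 genes tested). That is 0.689% of the genes tested, 0.23% higher and 0.459% lower, and on the adjusted p alone 43 genes passed (0.759%). On the log2 scale, the size of the change had a median of 2.08 for the 13 genes that rose (range 1.16 to 4.08) and of 1.72 for the 26 that fell (range 1.00 to 4.00), and it reached 2 or more in 8 genes of each kind. The calls lay close together at the threshold, with adjusted p-values between 0.0432 and 0.0465 (edgeR). Before adjustment 1047 genes (18.5%) had a p below 0.05, 533 of them higher (9.41%) and 514 lower (9.08%) in the later window. The median log2 fold change of all genes tested was -0.06. With libraries scaled by total counts alone this median was -0.18, and the calls were 9 genes up and 39 down. The 13 higher genes had mean levels of 12.4 to 230.8 CPM and the 26 lower ones of 14.1 to 811.4 CPM. Of the 3 classes of genes by mean level, the lowest (4.41 to 23.9 CPM) held 5 of the calls in 1888 genes, 4 of them higher, the middle one 17 in 1887 and the highest (76.5 CPM and above) 17 in 1888, 14 of them lower.

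ML00881a and ML083721a rose. Like the falling genes below, they were picked among calls with no overlap between the windows, so the lack of overlap is no result. ML00881a had 109, 160.1 and 206.1 CPM as the lowest, median and highest value in the 5.5 to 6.5 h embryos, against 6.17, 23.9 and 94.2 CPM in the 4 to 5 h embryos. The groups do not overlap, and the embryo nearest to the later window was 5 h replicate 2, while the other 5 embryos of 4 to 5 h were at 32.2 CPM or below. It averaged 157.5 ± 44.5 CPM in the later window and 33.3 ± 31.1 CPM in the earlier one (SD, n = 6 each), a log2 fold change of 2.26 ± 0.46 (SE, edgeR adjusted p = 0.0434). In the 8 embryos of 0 to 3 h it had 0 to 3.91 CPM on a scale set over all 40 libraries. ML083721a had 36.4, 54.0 and 74.9 CPM (lowest, median, highest) in the later window, against 13.3, 19.9 and 31.9 CPM in the earlier one. Again the groups do not overlap and 5 h replicate 2 was the highest of its window. The log2 fold change was 1.32 ± 0.28 (SE, edgeR adjusted p = 0.0442), from means of 52.7 ± 13.8 CPM and 21.0 ± 6.16 CPM (SD, n = 6 each), and the 0 to 3 h embryos had 10.6 to 24.4 CPM. Reads of this gene were thus found from the start of the series.

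ML42442a and ML270546a fell. ML42442a had 4.95, 10.4 and 16.2 CPM (lowest, median, highest) in the 5.5 to 6.5 h embryos, against 16.6, 40.7 and 113.2 CPM in the 4 to 5 h embryos. The groups touch but do not overlap, since 5.5 h replicate 2 was at 16.2 CPM, from 4 reads, and 5 h replicate 2 at 16.6 CPM. The log2 fold change was -2.25 ± 0.42 (SE, edgeR adjusted p = 0.0432), from means of 10.8 ± 4.12 CPM in the later and 51.2 ± 36.9 CPM in the earlier window (SD, n = 6 each). ML270546a had 9.06, 35.6 and 56.5 CPM in the later window, against 64.2, 155.6 and 236.0 CPM in the earlier one. Its level decreased through both windows in pool 6, with 234.4, 170.1 and 127.6 CPM at 4, 4.5 and 5 h and 56.5, 30.8 and 27.6 CPM at 5.5, 6 and 6.5 h. The log2 fold change was -2.21 ± 0.40 (SE, edgeR adjusted p = 0.0432). Over 0 to 3 h ML42442a had 17.9 to 83.6 CPM in the 4 embryos of pool 12 and 102.7 to 235.8 CPM in the 4 of pool 6, so that the pools did not overlap, while ML270546a had a median of 4.66 CPM, below each of its 4 to 5 h values.

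**Figure D2:**
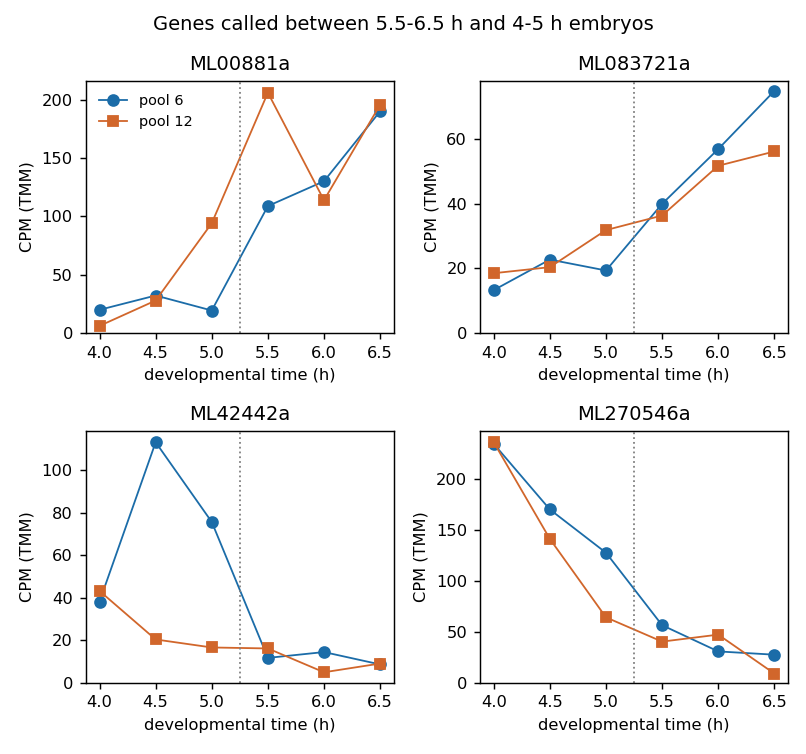
CPM scaled by TMM (y axis, linear from 0) against labelled time in hours (x axis) for the 4 genes named in the window comparison, with 1 line per pool and the border between the windows dotted. ML00881a and ML083721a stand higher at 5.5 to 6.5 h and ML42442a and ML270546a lower, with 5 h replicate 2 of pool 12 the nearest to the later window in each of the 4.

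The 5 h embryo of pool 12 was the nearest to the later window in most of the called genes. It had the highest level of its window in 9 of the 13 higher genes, and the lowest in 21 of the 26 lower ones. Over all 5663 genes it was the highest of the 4 to 5 h embryos in 18.5% and the lowest in 18.4%. On a log2(CPM + 1) scale with each gene centred on its mean over the 12 embryos, the median of the 13 higher genes was 0.64 to 1.65 in the embryos of 5.5 to 6.5 h, and -1.24 to -0.91 in the embryos of 4 to 5 h other than 5 h replicate 2, which was at 0.17. The median of the 26 lower genes was -1.10 to -0.46 in the later window, and 0.92 to 1.16 in the earlier window other than 5 h replicate 2, which was at -0.32. These genes were called from the same embryos, so the values describe them and test nothing. Of the calls, 5 of the 13 higher and 5 of the 26 lower genes had no overlap between the windows, where 0.583% and 0.494% of all genes tested had none in the same direction. The called genes were a small part of the RNA. Their summed CPM are given as percentages of the TMM-scaled library total, which is not the plain total of gene reads. The 13 higher genes came to 0.0891% to 0.189% in the later window and 0.0256% to 0.0752% in the earlier one. For the 26 lower genes the values were 0.146% to 0.266% and 0.269% to 0.676%.

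The number of called genes depended on single libraries, and above all on 5 h replicate 2. Without it 472 genes were called (329 higher, 143 lower in the later window), among them all 39, and 9 were called without 4 h replicate 2. Without 5.5 h replicate 2 the count was 39, of which 27 were the same genes. Without any 1 of the other 9 embryos, which are both 4.5 h, both 6 h and both 6.5 h embryos, 4 h replicate 1, 5 h replicate 1 and 5.5 h replicate 1, the count was 0 by edgeR, with 797 to 1015 genes at an unadjusted p below 0.05. With both shallow libraries out it was 0 by edgeR, with 1145 genes at an unadjusted p below 0.05. With the border times 5 and 5.5 h left out, so that 6 and 6.5 h embryos were compared with 4 and 4.5 h embryos, 457 genes passed, with 306 up and 151 down, among them the 38 of the 39 that were tested. DESeq2 called 259 genes in the 12 embryos, 173 higher and 86 lower, with 38 of the 39 among them.

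**Figure D3:**
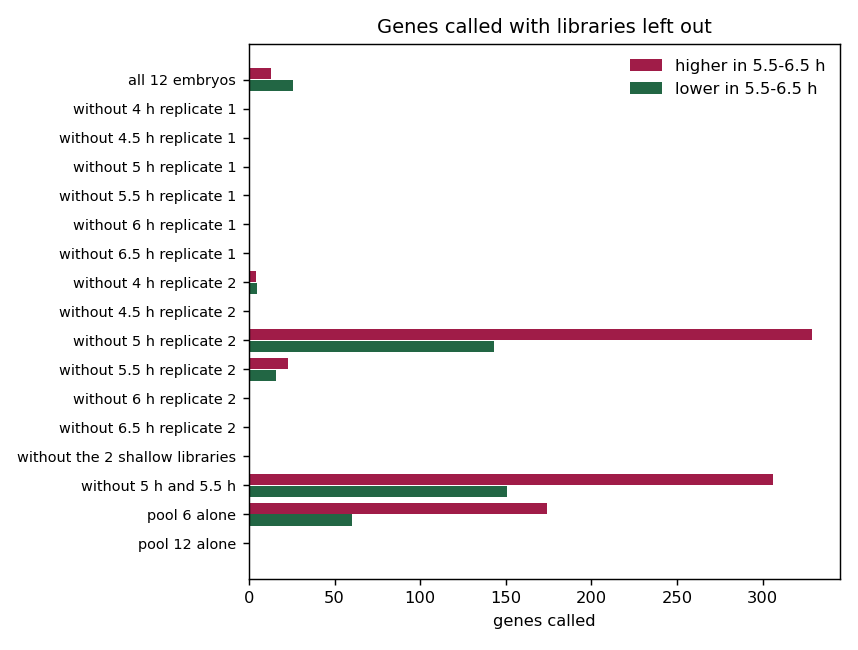
Number of genes called higher and lower in 5.5 to 6.5 h embryos (x axis, from 0) in all 12 embryos and with libraries left out (y axis). The count is 39 with all 12, 472 without 5 h replicate 2, 457 without the 5 and 5.5 h embryos, 234 in pool 6 alone, and 0 without any 1 of 9 embryos, without both shallow libraries and in pool 12 alone.

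The pools were also compared. Within pool 6 alone (3 embryos against 3) 234 genes passed, with 174 up and 60 down in the later window, and within pool 12 alone, which holds 5 h replicate 2 and 5.5 h replicate 2, none were called by edgeR, with 186 genes at an unadjusted p below 0.05. This is not a shown difference between pools: the test of the difference itself, the pool by window term, called 0 of 5663 genes in edgeR and 0 in DESeq2, with 112 genes (1.98%) and 137 genes at an unadjusted p below 0.05. All 13 higher and all 26 lower genes had their direction in both pools, but they were called from both pools together. Between pool 12 and pool 6 themselves, with the window in the model, 201 genes (3.55%) were called, 16 higher (0.283%) and 185 lower (3.27%) in pool 12, and 4 of the 39 genes were among them. Without the pool in the model no gene was called between the windows by edgeR, with 864 at an unadjusted p below 0.05.

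The called genes were then followed through the other times of the series, on 1 scale over all 40 libraries and without 10 h replicate 1, which held fewer than 10000 reads. The median of the 13 higher genes was 5.42 to 7.25 CPM from 0 to 3 h, 9.22 CPM at 4 h and 9.24 CPM at 4.5 h. It was 25.6 CPM at 5 h, 29.9 CPM at 5.5 h, 55.0 CPM at 6 h and 79.7 CPM at 6.5 h, and between 71.5 and 150.1 CPM at every time from 7 to 20 h. The highest level came after 6.5 h in 12 of the 13, and in 43.3% of all genes tested. The median of the 26 lower genes was 52.2 to 72.1 CPM from 0 to 3 h, 147.4 CPM at 4 h, 137.2 CPM at 4.5 h and 85.6 CPM at 5 h. It then stood at 37.5 CPM at 5.5 h, 40.2 CPM at 6 h and 28.8 CPM at 6.5 h, and between 5.77 and 32.6 CPM at every later time. Of the 26, 13 had their highest level at 0 to 3 h, 12 at 4 to 5 h and 1 at 10 h or later, where the shares of all genes tested were 30.8%, 15.4% and 25.6%. The calls themselves limit where these genes can be highest, so the counts are a description. The median of all 5663 genes tested lay between 36.4 and 44.2 CPM at every time.

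**Figure D4:**
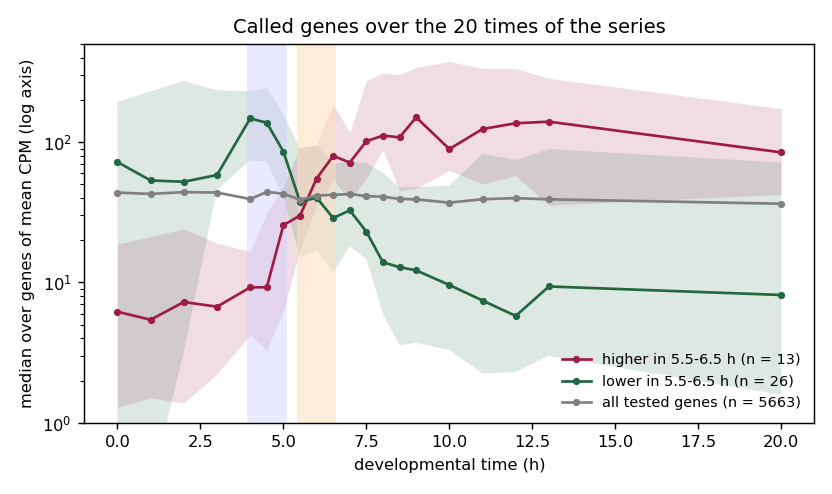
Median over genes of the mean CPM per time (y axis, log axis, shading from the lower to the upper quartile and drawn from 1 CPM) against developmental time (x axis, hours) for the 13 higher genes, the 26 lower genes and all 5663 genes tested. The windows are shaded, 4 to 5 h in blue and 5.5 to 6.5 h in orange. The lines of the called genes cross inside the later window, between 5.5 and 6 h.

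Embryos outside both windows gave a separate look at these genes. The embryos of 7 and 7.5 h were compared with those of 2 and 3 h (4 against 4, with the pool as a block), which uses none of the 12 embryos. Of 5923 genes tested, 881 were higher at 7 to 7.5 h (14.9%) and 586 lower (9.89%). Of the 13 genes higher at 5.5 to 6.5 h, 11 passed the filter on low counts here, and all 11 were called higher at 7 to 7.5 h, with log2 fold changes of 1.12 to 6.31 (edgeR), where 13.8% of the 5378 genes tested in both comparisons were called higher. Of the 26 lower genes 25 were tested, and 10 were called lower (40%, against 10.1% of the 5378) and 2 higher. A gene that passed the filter only through the group where it is high had to differ, so these shares describe the genes that passed. Of the genes named above, ML00881a had 248.4 ± 82.5 CPM at 7 to 7.5 h and 3.06 ± 0.55 CPM at 2 to 3 h (SD, n = 4 each), a log2 fold change of 6.31 ± 0.37 (SE, edgeR adjusted p = 2.63e-06). ML270546a had 35.4 ± 24.9 CPM at 7 to 7.5 h and 27.4 ± 22.8 CPM at 2 to 3 h and was not called (log2 fold change 0.32 ± 0.69, SE, edgeR adjusted p = 0.752).

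The same step was looked up for the genes with the smallest p in these outer embryos. ML38411a and ML38412a had 984.6 ± 247.1 and 848.0 ± 173.0 CPM at 7 to 7.5 h, against 1.87 ± 0.53 and 1.53 ± 0.83 CPM at 2 to 3 h (SD, n = 4 each, log2 fold changes 9.02 ± 0.35 and 8.99 ± 0.39, SE). Inside the windows they had 132.3 to 441.1 and 90.3 to 285.2 CPM at 5.5 to 6.5 h, against 0 to 259.1 and 1.37 to 171.8 CPM at 4 to 5 h. The values of the 4 to 5 h embryos other than 5 h replicate 2 reached 26.6 and 11.6 CPM at most, and neither gene was called between the windows (log2 fold changes 2.79 ± 0.97 and 2.77 ± 0.86, SE, edgeR adjusted p = 0.153 and 0.13). ML006920a and ML01794a fell to 11.8 ± 1.5 and 86.8 ± 5.34 CPM at 7 to 7.5 h, against 131.6 ± 18.2 and 536.2 ± 106.6 CPM at 2 to 3 h (SD, n = 4 each). ML01794a had 111.5 to 224.2 CPM at 5.5 to 6.5 h and 193.5 to 580.3 CPM at 4 to 5 h, with the lowest of the last in 5 h replicate 2, and missed the threshold between the windows (log2 fold change -1.18 ± 0.27, SE, edgeR adjusted p = 0.0546). ML006920a was not called either (log2 fold change -1.12 ± 0.40, SE, edgeR adjusted p = 0.158).

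A second model asked which genes changed with age inside the windows, as 1 slope per hour common to both windows, with the pool and the window in the model. It called 5 genes (0.0883% of those tested), all rising within windows and none falling, while 1148 genes (20.3%) had a p below 0.05 before adjustment, 672 rising (11.9%) and 476 falling (8.41%). DESeq2 called 368, 253 rising and 115 falling. None of the 5 was among the 39 genes called between the windows. ML05383a rose by 4.12 ± 0.64 log2 units per hour (SE, edgeR adjusted p = 0.037), and ML03673a by 1.84 ± 0.26 (SE, edgeR adjusted p = 0.026). The others, named although the rule for named genes did not pick them, were ML007813a, ML10292a and ML206414a.

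The 5 genes were picked for a steep rise common to both windows, and none was called between the windows. A lower level at 5.5 h than at 5 h is largely built into that choice, so the values below are a description. How many of all genes tested step back in this way was not counted. In 4 of these 5 genes the 5.5 h embryo was below the 5 h embryo in both pools, a step that was not tested. The exception, ML05383a, had means of 3.67, 9.06 and 111.3 CPM at 4, 4.5 and 5 h and of 71.4, 229.3 and 596.6 CPM at 5.5, 6 and 6.5 h, and its 5 h mean rests on 185.6 CPM in 5 h replicate 2 and 37.0 CPM in 5 h replicate 1. ML03673a had means of 98.8, 296.4 and 444.6 CPM at 4, 4.5 and 5 h, then 149.0, 290.2 and 576.0 CPM at 5.5, 6 and 6.5 h, so that each window ran through nearly the same range. In pool 6 it stood at 221.2 CPM at 5.5 h and 677.7 CPM at 5 h, and in pool 12 at 76.8 CPM at 5.5 h and 211.5 CPM at 5 h. ML007813a showed the same course, with 16.5 CPM at 5.5 h and 83.6 CPM at 5 h in pool 6, and 16.2 CPM at 5.5 h and 88.7 CPM at 5 h in pool 12. Its 5.5 h value in pool 12 rests on 4 reads. In ML10292a and ML206414a the 5.5 h embryo was also below the 5 h embryo in both pools, and in ML206414a the value of 5.5 h replicate 2 rests on 1 read. The window difference of ML03673a was 0.10 ± 0.43 on the log2 scale (SE, edgeR adjusted p = 0.938). The gene was also lower in pool 12 than in pool 6 at all 10 times from 0 to 6.5 h. At 0 to 3 h it had 43.1 to 101.6 CPM in the 4 embryos of pool 12 and 161.9 to 644.0 CPM in the 4 of pool 6, on the scale over all libraries. On that scale pool 12 was slightly above pool 6 at 7 h (236.5 against 221.8 CPM) and below it again at 7.5 h (247.5 against 307.1 CPM). In the 12 embryos the difference of pool 12 from pool 6 was -1.98 ± 0.44 on the log2 scale (SE, edgeR adjusted p = 0.0198). Without 5.5 h replicate 1, or without 6.5 h replicate 1, no slope was called by edgeR, with 1162 and 906 genes at an unadjusted p below 0.05. Without 6.5 h replicate 2 there were 57, and without 4 h replicate 1, 5 h replicate 1, 4 h replicate 2, 5 h replicate 2, 5.5 h replicate 2 and 6 h replicate 2 there were 2, 8, 1, 2, 10 and 1.

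**Figure D5:**
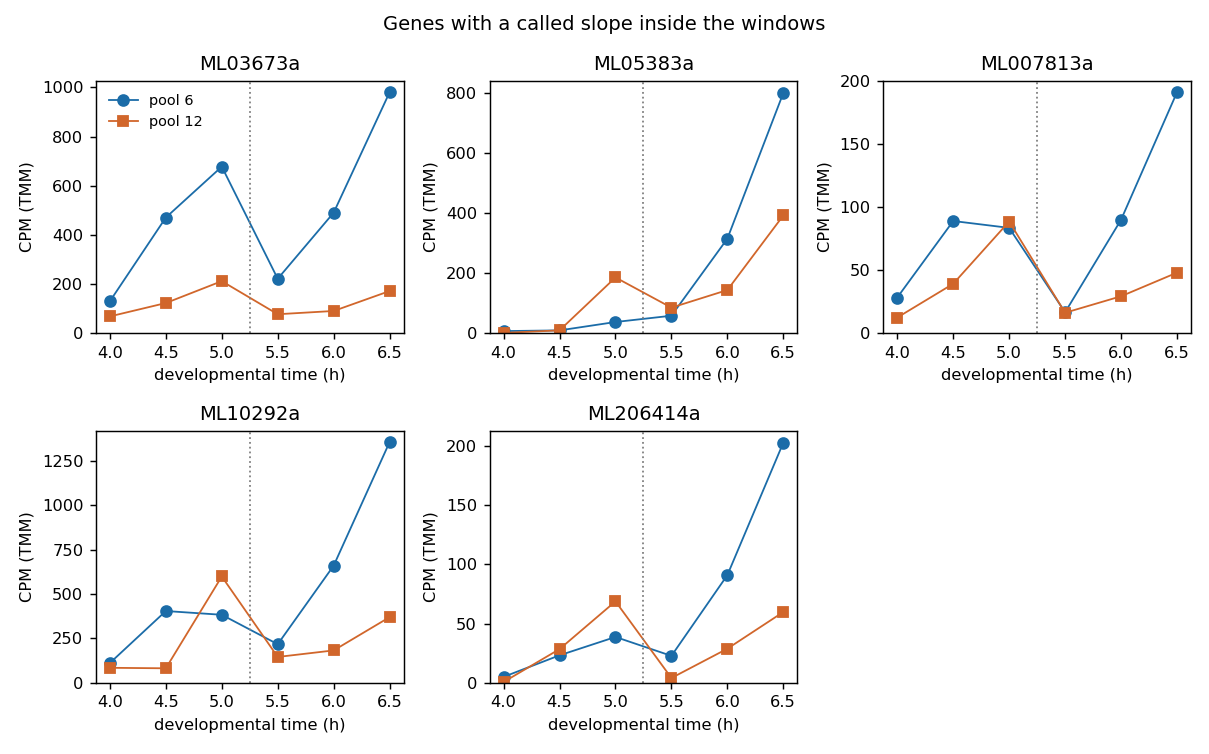
CPM scaled by TMM (y axis, linear from 0) against labelled time in hours (x axis) for the 5 genes with a called slope inside the windows, with 1 line per pool and the border between the windows dotted. In ML03673a, ML007813a, ML10292a and ML206414a the 5.5 h embryo lies below the 5 h embryo in both pools, and in ML05383a in pool 12 alone. The choice of genes by a rise common to both windows favours such a step.

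Some genes were read in one window and not in the other. All 16548 gene models were searched, of which 3743 had no read in the 12 embryos. In 47 genes, 4 or more of the 6 embryos in the later window had reads and none in the earlier window had any. The reverse held for 6 genes. All 53 were rare, with 4 to 38 reads in all (median 12) for the 47 and 5 to 22 (median 11) for the 6, and none passed the filter of the edgeR test. The largest was ML19104a, with 1, 10 and 25 reads at 5.5, 6 and 6.5 h in pool 6 and 0, 2 and 0 in pool 12. Taking 3 reads over all 4 to 5 h embryos as the floor, its share of gene reads in the later window was 11.6-fold above that floor. For ML231815a, with 33 reads, it was 10.1-fold. Of the 6 genes of the reverse kind, ML137610a had 22 reads and ML01627a 20 at 4 to 5 h. That is 8.02-fold and 7.29-fold above a floor of 3 reads over the 5.5 to 6.5 h embryos. All 53 genes were picked for 0 reads in 1 window, so these ratios are descriptions and leave out the spread between embryos. Of the 47 genes 31 had reads at 0 to 3 h, so that 16 were first read after 5 h, and 46 had reads at 7 or 7.5 h. All 6 of the reverse kind had reads at 0 to 3 h, and 4 had reads at 7 or 7.5 h, among them ML01627a with 7. The 47 genes were read in 46 cases in 6.5 h replicate 1 and in 9 cases in the shallow 5.5 h replicate 2. After thinning all libraries to equal totals the counts were 53 and 17. Without 5 h replicate 2 the numbers were 180 and 2. The 6 became 3 without 4.5 h replicate 1, 2 without 5 h replicate 1, and 14, 18, 19, 10, 13 and 13 without 5.5, 6 and 6.5 h replicate 1 and 5.5, 6 and 6.5 h replicate 2. Leaving out others moved the 47 to 75 without 4.5 h replicate 1, and to 23, 19, 14, 21 and 27 without 5.5 h replicate 1, 6 h replicate 1, 6.5 h replicate 1, 6 h replicate 2 and 6.5 h replicate 2, where 1 embryo fewer is left to reach 4.

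The number of genes detected at equal totals did not pass a test between the windows. After thinning, 7131 ± 443.0 genes had at least 1 read in the 5.5 to 6.5 h embryos and 6857.3 ± 306.3 in the 4 to 5 h embryos (SD, n = 6 each), a difference of 273.7 genes (exact permutation test, 2-sided, p = 0.249, smallest possible p = 0.00216). Permuted within pools, the same difference did not pass either (exact permutation test, 2-sided, p = 0.125). In pool 6 the later embryos exceeded the earlier ones by 478 genes, with 7209, 7540 and 7704 genes at 5.5, 6 and 6.5 h, against 7065, 7006 and 6948 genes at 4, 4.5 and 5 h. In pool 12 the difference was 69.3 genes, with 6531, 6984 and 6818 genes at 5.5, 6 and 6.5 h, against 6375, 6590 and 7160 at 4, 4.5 and 5 h. The 5 h embryo of pool 12 again stood above all 3 later embryos of its pool. With both shallow libraries left out the difference was 435.2 genes (exact permutation p = 0.0952).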

How the data were processed

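RNA of 40 single embryos was measured by CEL-Seq, and 12 of them are compared here. The authors deposited counts of reads per gene model, with 5 further rows that name no gene. Per the submitters' processing notes CASAVA 1.8, Bowtie2 2.1.0 and HTSeq 0.5.4p3 were used. No source used here gives the genome build or says whether molecular identifiers were used. Without identifiers, reads are not independent molecules. All columns of per-sample values were used. The sheet of samples deposited by the authors gives each embryo's pool number. Both pools hold 1 embryo of every time, and the pool was used as the block.

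Of 16548 gene models 3743 had no read in the 12 embryos, and 5663 passed filterByExpr (minimum count 10) and were tested with edgeR 4.0.16 in R 4.3.3: TMM scaling, quasi-likelihood F test and Benjamini-Hochberg adjustment. Rows that name no gene stayed out of library sizes. Calls needed an adjusted p below 0.05 and, between groups, a change of at least 1 on the log2 scale. Standard errors were approximated from each log2 fold change and its F value. The median biological coefficient of variation was 0.388. Slopes and pool by window terms were called on the adjusted p alone. CPM are scaled by TMM over the 12 libraries unless stated otherwise. Single values were tested by exact permutation over 924 arrangements with all 12 embryos, or over 400 where permuted within pools. The fits were tested on simulated data. Alternatives included DESeq2 1.42.0. Named between windows were the 2 genes per direction with the largest change among called genes that had no overlap and at least 50 CPM on average in the higher window. For slopes and for 7 to 7.5 h against 2 to 3 h they were the 2 per direction with the smallest p at a mean of at least 50 CPM, and for genes read in 1 window the 2 with most reads. Members, comparisons and rules were chosen with earlier results of these data known.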

Additional observations from a re-analysis of the deposited data

Results flagged for a closer look

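In 4 of 44 groups of values checked, 1 embryo stood far from the others of its group. For normally distributed values without a trend, chance flags about 1 in 20. That rate need not hold here, since CPM need not be normal and some of the genes change with age inside a window. In all 4 flagged groups the embryo was 5 h replicate 2 among the 4 to 5 h embryos. It had 94.2 CPM of ML00881a, where the other 5 embryos had 6.17 to 32.2 CPM, and 185.6 CPM of ML05383a, where the others had 0.686 to 37.0 CPM. It had 259.1 CPM of ML38411a, against 0 to 26.6 CPM in the others, and 171.8 CPM of ML38412a, against 1.37 to 11.6 CPM. The genes are not independent, since all 4 values come from 1 library. That library held 2302952 reads and was not shallow.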

How the results depend on the processing

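The count of genes called between the windows (39) was 0 without the replicate block on the pool (864 at an unadjusted p below 0.05), without both shallow libraries (1145), with glmTreat (215) and in pool 12 alone (186). It was 259 with DESeq2, 297 with no filter, 24 after thinning, 427 with all 40 embryos in the fit, 234 in pool 6 alone, 457 without 5 and 5.5 h and, chosen after seeing the data, 517 without 5 h replicate 2 and 5.5 h replicate 2 together. Leaving out 1 embryo gave 0 to 472. The 5 slopes became 0 without the block (908 at an unadjusted p below 0.05) and with total counts (1063), 368 with DESeq2, 542 with no filter, 30 after thinning and 3 without both shallow libraries, and 0 to 57 with 1 embryo left out. The pool by window term gave 40 genes with no filter. The 201 genes between pools ranged from 46 to 366 with 1 embryo left out, and the 1467 of 7 to 7.5 h against 2 to 3 h from 1179 to 1926, with 2659 with no filter. Genes read in one window gave 14 to 180 (5.5 to 6.5 h) and 2 to 19 (4 to 5 h) with 1 embryo left out, and 17 of the second kind after thinning. The 4 genes named between windows kept their direction in each alternative that gave a value, 27 for each but ML42442a, which had 26 and was not among the genes tested after thinning. ML083721a lost its call in 16 of them and the other 3 in 14 each. The direction was nearly fixed in advance, since these 4 were picked for no overlap between the windows in the same embryos. The difference in unaligned reads (-0.36 percentage points) turned to 0.00818 without 6.5 h replicate 2, within -0.650 to 0.00818 with 1 embryo left out. The cause of these changes was not tested. Depth limits rare genes: the median standard error was 0.49 in the lowest of 3 classes of genes by level and 0.24 in the highest.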

Other observations

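ML05383a, which rose inside the windows, had no read in 7 h replicate 1, a library of 1384763 reads. By that plain total, 3 reads correspond to 2.17 CPM. On the scale over all libraries the levels of ML05383a were 766.1 and 396.2 CPM in the 6.5 h embryos, 755.9 CPM in 7 h replicate 2 and 1173.6 and 1149.4 CPM in the 7.5 h embryos. Among the 6 embryos of 6.5 to 7.5 h it was the only gene at 0 in 1 embryo and at 100 CPM or more in the other 5. In 0 to 3 h embryos it had 0.995 to 4.52 CPM.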
